A study of Rattus norvegicus with 113 samples.

Results

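The data described here are the GE profiles of the cortex of naive rats, which had neither anesthesia nor surgery and were not handled, over the year in which the other rats of the study were followed after injury. The naive cortex arrays were chosen by their titles and number 20 of the 113 arrays of the series, with 4 arrays at each of 5 intervals: 24hr, 2wk, 3mo, 6mo and 1yr. The study applied a fluid-percussion brain injury to adult male Sprague-Dawley rats and profiled hippocampus and cortex with single-colour Agilent arrays, and the naive rats served as the unoperated baseline. The age of the naive rats at each interval was not given in the sources used here, so an interval is a time since the start of the study for that cohort and not an age. The 20 sham cortex arrays, from rats that had anesthesia and surgery without the injury, were profiled at the same intervals, 4 arrays each, and served here for comparison, as did 12 naive hippocampus arrays at 2wk, 6mo and 1yr. By the animal numbers in the deposited data those hippocampi came from the same rats as the naive cortex samples, so they were another region of the same animals and not further animals.

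The adult rat cortex holds few dividing cells, and those that remain are mainly oligodendrocyte precursors and cells of the vessels and meninges, which makes transcripts of the mitotic machinery low there. Blood left in brain tissue adds hemoglobin and other red cell transcripts from reticulocytes, whose share in the circulation declines as a young animal matures. Immediate early genes follow neuronal activity and handling within minutes, clock genes follow the hour of the day, and complement genes of glia are known to be higher in aged rodent brain.

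The levels below are log2 values relative to the median of each array, so that a level of 0 is the median probe. A comparison took in the probes that all 4 arrays of 1 or more of its groups measured well above background, and a probe was called if its Benjamini-Hochberg adjusted p from limma was under 0.05. The fourth 2wk array stood apart: its median signal was 181 against 43.94 to 64.51 in the other 19 naive arrays, while its 75th percentile, 829.6, lay inside the range of all 20 arrays, 577.6 to 830.4. At the median scaling the bright genes of that array came out low, so each result was computed over all 20 arrays at the median and also over the other 19 arrays at the 75th percentile, and the second is named where it is used. Among the sham arrays the third 2wk array stood apart more broadly, with a median signal of 1806 against 39.32 to 72.18. It had 93% of its probes well above background, against 65.17% in the fourth naive 2wk array. That sham array was left out of the 75th percentile values of sham cortex. Each interval lay on a slide of its own, so slide and interval cannot be told apart in naive cortex. All 30 synapse and neuron markers were well above background in the 4 arrays of every interval but 2wk, where 29 were, against 11 of 16 hippocampus markers at every interval. Synapse markers do not separate cortex from hippocampus, and of 23 markers of cortical layers and areas 21 were well above background in all 4 arrays at 24hr, 19 at 2wk, 17 at 3mo and 6mo and 16 at 1yr.

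In naive cortex at 1yr against 24hr, 15 probes were higher and 26 lower, 41 of 23580 probes tested (0.174%), and 1445 had an unadjusted p under 0.05. With the 19 arrays at the 75th percentile 834 were higher and 1467 lower, 2301 in all (9.76%), and these included all 41. The 4 arrays at 1yr did not overlap the 4 at 24hr in 40 of the 41 called probes, beside 3806 of all probes tested (16.2%). By 1 probe for each named gene, 5 genes were higher and 17 lower of 11004 (0.2%), or 357 higher and 522 lower at the 75th percentile (7.99%). A slope over the 5 intervals was called for 46 of 24259 probes (0.19%), 21 rising and 25 falling, and at the 75th percentile for 580 (2.37%), 276 rising and 304 falling.

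**Figure D1:**
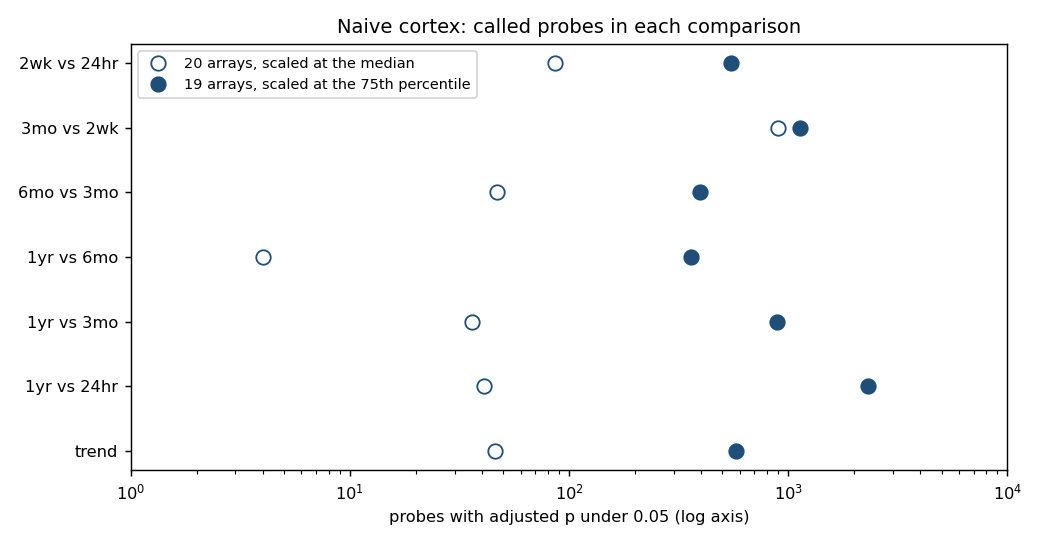
Probes with an adjusted p under 0.05 in each comparison of naive cortex intervals and in the slope over all 5 (log axis), with open circles for 20 arrays scaled at the median and filled circles for 19 arrays scaled at the 75th percentile. The 1yr against 24hr comparison moved from 41 to 2301 called probes between the 2 settings, and 3mo against 2wk from 895 to 1127.

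Genes of cell division were lower late in the year. Cdk1, the kinase that drives entry into mitosis, stood at 1.72, 0.64, 0.79 and 0.70 in the 24hr arrays and at -0.54, -0.39, -0.16 and -0.75 in the 1yr arrays, with the 3mo and 6mo arrays between -0.56 and 0.52. The 24hr and 1yr arrays did not overlap, and the first 24hr array was the highest of its group. The level fell by 1.42 ± 0.30 (SE, adjusted p = 0.0337 in limma, 4 arrays each), or by 1.37 ± 0.23 at the 75th percentile (adjusted p = 0.0026), and the call at the median held in 12 of the 20 fits that each left out 1 array (adjusted p from 0.00293 to 0.222). Cdca3, a mitotic regulator that is destroyed as cells leave mitosis, stood at 0.61, -0.44, -0.32 and -0.57 at 24hr and was not well above background in any 6mo or 1yr array, a change of at least 1.48-fold (adjusted p = 0.0286), called in 14 of those 20 fits. Ccnb2, the cyclin B partner of Cdk1, stood at 1.42, 0.88, 0.88 and 1.03 at 24hr and at 0.50, -0.07, 0.01 and 0.09 at 1yr, again without overlap, and was called at the 75th percentile (-0.87 ± 0.13, adjusted p = 0.00161) but not at the median (adjusted p = 0.308). In these bulk samples fewer cells of a type and less RNA in each cell cannot be told apart.

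Promoters of these genes were looked at because they fell together. In the RefSeq sequences of the GRCr8 assembly, the 160 bases up to the start of each gene are shown for Cdk1 (chr20:19265133-19265292, plus strand), Ccnb2 (chr8:79981659-79981818, minus strand) and Cdca3 (chr4:159321043-159321202, plus strand), with capitals at CCAAT, the box bound by NF-Y, and at TTTGAA, the core of the cell cycle homology region, on either strand.
Cdk1: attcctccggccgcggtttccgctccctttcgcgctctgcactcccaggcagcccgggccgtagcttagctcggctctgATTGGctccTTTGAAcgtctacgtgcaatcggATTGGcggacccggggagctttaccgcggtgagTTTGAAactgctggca
Ccnb2: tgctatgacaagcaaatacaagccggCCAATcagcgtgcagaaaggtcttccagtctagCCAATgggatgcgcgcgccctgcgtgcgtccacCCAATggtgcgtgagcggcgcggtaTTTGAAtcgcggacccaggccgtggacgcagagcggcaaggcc
Cdca3: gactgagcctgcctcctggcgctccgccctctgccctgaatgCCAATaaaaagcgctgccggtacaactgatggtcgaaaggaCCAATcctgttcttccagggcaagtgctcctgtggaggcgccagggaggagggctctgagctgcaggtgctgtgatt
Within 250 bases before the start, 15 of 20 cell division genes with a listed promoter held CCAAT on either strand (75%), beside 34% of 33469 promoters and 35.5% of those of 9001 genes tested. TTTGAA was found in 7 of the 20 (35%), beside 16.2% and 10.1%, and the printed Cdca3 sequence held none. A match is a description of the letters in this window.

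Over the list of cell division genes, 18 of 26 members were tested at 1yr against 24hr. Only Cdk1 was called at the median, with 16 of the 18 values negative and a median of -0.24 beside -0.05 over all genes. At the 75th percentile 5 of 18 fell and none rose (Cdk1, Ccnb2, Kif11, Ccna2 and Plk1), against 4.74% of named genes called lower, and the median was -0.19 beside 0.00. Kif11, a spindle motor, changed by -1.26 and Ccna2, cyclin A, by -0.83. Cdca3 is not on the list, nor is Pclaf, which binds PCNA at replication forks and was lower by at least 1.07-fold (adjusted p = 0.00829), and the slope of Ndc80, a kinetochore protein, fell by 0.10 a month (adjusted p = 0.0343). From 3mo to 1yr no member of the list was called in either setting.

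**Figure D2:**
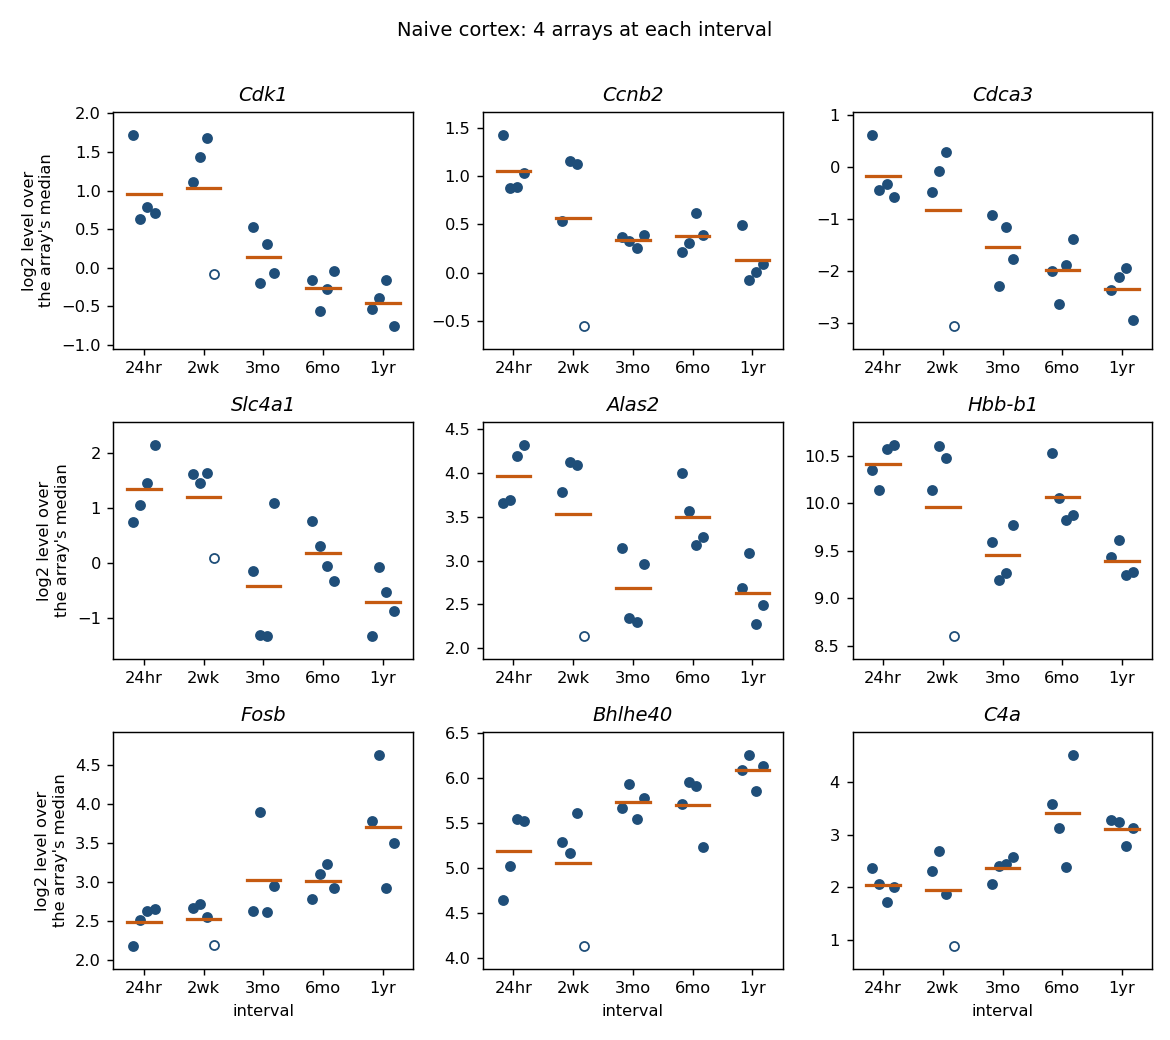
Levels (log2 relative to the array median) of 9 genes in the 4 naive cortex arrays at each interval, with a line at each group's mean and a hollow point for the fourth 2wk array, which stood apart. Cdk1 lay between 0.64 and 1.72 at 24hr and between -0.75 and -0.16 at 1yr, while Hbb-b1 was lower at 3mo and 1yr than at 24hr and 6mo.

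Red cell transcripts were also lower at 1yr, but not in a steady course. Slc4a1, the band 3 anion exchanger of the red cell membrane, stood at 0.74, 1.06, 1.45 and 2.15 at 24hr and at -1.32, -0.07, -0.53 and -0.88 at 1yr, and fell by 2.05 ± 0.41 (adjusted p = 0.0189), a call made in 16 of the 20 fits that left out 1 array. Hbb-b1, a beta globin, stood at 10.35, 10.14, 10.57 and 10.62 at 24hr, at 9.60, 9.19, 9.27 and 9.77 at 3mo, at 10.53, 10.05, 9.82 and 9.88 at 6mo and at 9.43, 9.61, 9.25 and 9.28 at 1yr. The 3mo and 1yr arrays were thus low and overlapped each other, and the 6mo arrays overlapped those of 24hr. Alas2, the heme synthesis enzyme of erythroid cells, followed the same order, from 3.66 to 4.31 at 24hr, 2.30 to 3.14 at 3mo, at least 3.17 in every array at 6mo and 2.27 to 3.09 at 1yr.

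At the 75th percentile 7 of 11 tested members of the blood list fell at 1yr against 24hr and none rose, beside 4.74% of named genes called lower. The list had a median of -0.87. Those that fell were Slc4a1 (adjusted p = 0.013), Alas2 by 1.28, Hbb-b1 by 0.98 (adjusted p = 0.00302), Ahsp by 0.95, Hba-a1 by 0.91, Hba-a2 by 0.87 and Hbb by 0.78. At the median only Slc4a1 was called, with the same direction in 10 of 11. Between 3mo and 1yr the median was 0.05 over 9 members at the 75th percentile. The summed level of the list on the linear scale was 352.8 to 484.8 times the array's 75th percentile at 24hr and 203.7 to 265 at 1yr. Whether blood in the tissue had a part in any other result was not tested.

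The largest falls among named genes were in genes that are not characteristic of cortex, most of them near background. Casr, the calcium-sensing receptor, stood at 1.73, 0.77, 1.04 and -0.06 at 24hr and at 0.39, 1.19, 1.49 and -0.94 at 2wk, then between -1.99 and 0.31 at 3mo, and was not well above background at 6mo or 1yr. Its fall to 1yr was at least 3.05-fold (adjusted p = 5.43e-05), with no overlap. Ceacam4, a member of the carcinoembryonic antigen adhesion family, went from 2.98, 1.42, 1.83 and 1.87 at 24hr to -1.16, -0.65, -0.23 and -1.14 at 1yr, a change of -2.82 ± 0.44 (adjusted p = 0.00066), and 1 of the 4 arrays at 1yr was well above background. Both genes had the same course, with the 24hr and 2wk arrays high.

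Among genes of muscle contraction, Trdn had another course from Myh1 and Mylk3, whose means over all arrays were lower at each later interval. Without the fourth 2wk array the 2wk mean of Mylk3, -0.10, lay above its 24hr mean, -0.22. Trdn, triadin of the sarcoplasmic reticulum, stood at 0.51, 0.26, -0.53 and 0.24 at 24hr and at 0.61, -0.20, -0.41 and -0.41 at 6mo, and at -2.44, -2.79, -3.12 and -1.71 at 1yr, where no array was well above background. The change to 1yr was at least 1.82-fold (adjusted p = 4.85e-05), and the 6mo arrays overlapped those of 24hr. Myh1, a skeletal muscle myosin heavy chain, was at 1.04, 0.94, 0.59 and 0.62 at 24hr and lower by at least 2.87-fold at 1yr (adjusted p = 0.000369), and Mylk3, the cardiac myosin light chain kinase, by at least 1.44-fold (adjusted p = 0.00066). Other falls that can be given only as bounds were those of Sfmbt2, a Polycomb group protein (at least 2.09-fold, adjusted p = 0.00066), Igf2bp2, an mRNA-binding protein (at least 1.52-fold, adjusted p = 1.03e-05), and Tnfaip6, a hyaluronan-binding protein (at least 1.12-fold, adjusted p = 0.00127). Trdn, Igf2bp2, Sfmbt2 and Mylk3 also had other probes that did not pass the background filter. Pnlip, pancreatic lipase, was measured at every interval and fell from 3.45, 2.88, 2.74 and 2.65 at 24hr to 1.28, 1.08, 0.36 and 0.90 at 1yr (-2.03 ± 0.38, adjusted p = 0.0087).

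Only 5 named genes were higher at 1yr by the median scaling (0.0454% of those tested, against 0.154% lower). Sytl1, a synaptotagmin-like effector of vesicle transport, stood at 0.42, 0.42, 1.19 and 0.52 at 24hr and at 2.17, 2.52, 2.76 and 1.64 at 1yr, a rise of 1.63 ± 0.27 (adjusted p = 0.00127) without overlap, with the 6mo arrays between 1.44 and 1.92. Cdh23, a cadherin known from the hair cells of the inner ear, rose by 1.69 ± 0.32 (adjusted p = 0.0087) from -0.10, -0.36, -1.43 and -1.30 to 0.99, 0.91, 1.28 and 0.38. Spn, the leukocyte surface sialoglycoprotein CD43, rose by 1.41 ± 0.27 (adjusted p = 0.0087) and lay between 0.38 and 0.66 already at 6mo. Amy2a3, a pancreatic amylase, rose by 2.31 ± 0.44 (adjusted p = 0.0087), with 1 of 4 arrays well above background at 24hr. Both Amy2a3 and Spn also had other probes that did not pass the background filter. Ptgs2, the inducible prostaglandin synthase COX-2, stood at -0.83, -0.24, 0.04 and -0.02 at 24hr and at 0.65, 1.29, 2.35 and 0.57 at 1yr (1.48 ± 0.31, adjusted p = 0.0306, called in 15 of the 20 fits that left out 1 array), but its 3mo arrays, 1.05 to 1.65, lay within the range of the 1yr arrays.

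Immediate early genes were higher at 1yr as a list. Of 24 tested, 23 had a positive change in both settings, with a median of 0.56 at the median scaling and 0.61 at the 75th percentile. Ptgs2 alone was called at the median, and 6 rose at the 75th percentile: Ptgs2, Ccn1, Fosb, Klf2, Dusp1 and Klf4, against 3.24% of named genes called higher. Fosb, a subunit of the AP-1 factor, stood at 2.18, 2.51, 2.63 and 2.65 at 24hr and at 3.78, 4.62, 2.92 and 3.50 at 1yr, and rose by 1.26 ± 0.29 at the 75th percentile (adjusted p = 0.014). Maff, a small Maf factor, had a rising slope (0.10 a month, adjusted p = 0.0279).

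Of 15 clock genes tested, 3 rose at the 75th percentile, beside 3.24% of named genes called higher, and none was called at the median. Bhlhe40, a clock repressor that is also induced by activity, stood at 4.65, 5.02, 5.55 and 5.53 at 24hr and at 6.10, 6.26, 5.86 and 6.13 at 1yr (0.95 ± 0.18, adjusted p = 0.00675). Ciart, a repressor of CLOCK and BMAL1, stood at 3.51, 3.57, 3.72 and 3.68 at 24hr and at 4.30, 4.51, 4.16 and 4.46 at 1yr, a rise of 0.79 ± 0.13 (adjusted p = 0.00332). Dbp, an output gene of the clock, rose by 0.40 (adjusted p = 0.0163). The arrays of these genes did not overlap between 24hr and 1yr for Bhlhe40 and Ciart, and the hour of tissue collection was not given in the sources used here. In sham cortex 4 of 15 clock genes rose over this span at the 75th percentile, beside 1319 of 11476 named genes. At that scaling the slope of Bhlhe40 was 0.07 a month in naive and 0.02 in sham cortex (adjusted p = 0.361 in limma for sham). That of Ciart was 0.06 in naive and 6e-04 in sham cortex (adjusted p = 0.99 for sham). The naive minus sham difference of the slopes was not called in limma for either gene. It was 0.04 a month ± 0.02 SE for Bhlhe40 (adjusted p = 0.519) and 0.06 ± 0.03 for Ciart (adjusted p = 0.407). The promoter of Ciart (GRCr8, chr2:186112247-186112406, minus strand, RefSeq) is shown with capitals at CACGTG, the E-box bound by CLOCK and BMAL1.
Ciart: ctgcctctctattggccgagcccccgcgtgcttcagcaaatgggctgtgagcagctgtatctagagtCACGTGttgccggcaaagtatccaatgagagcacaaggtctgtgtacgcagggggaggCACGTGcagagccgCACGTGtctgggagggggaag
CACGTG was found within 250 bases before the start in 4 of 17 clock genes (23.5%), beside 5.59% of all promoters and 8.2% of those of genes tested.

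Of 16 complement genes tested, 3 of the classical pathway were called higher at 1yr at the 75th percentile, C4a, C1r and C1s, beside 3.24% of named genes, and none at the median. C4a stood at 2.36, 2.07, 1.72 and 2.01 at 24hr, at 2.06, 2.41, 2.44 and 2.57 at 3mo, at 3.59, 3.12, 2.39 and 4.51 at 6mo and at 3.28, 3.23, 2.79 and 3.12 at 1yr. The 1yr arrays all lay above the 24hr and 3mo arrays, while the 6mo arrays were spread widely. The rise was 1.12 ± 0.33 at the 75th percentile (adjusted p = 0.043), and the proteases C1r and C1s rose by 0.73 (adjusted p = 0.0237) and 0.66 (adjusted p = 0.0142). At the median C4a changed by 1.07 (adjusted p = 0.351). The list had 11 of 16 positive changes at the 75th percentile and 9 at the median, with medians of 0.18 and 0.13 beside 0.00 and -0.05 over all genes. The slope of C4a over the year changed sign with the scan day as a block, from 0.09 to -0.04 a month at the 75th percentile over 20 arrays. C4a has a near-identical copy in C4b, and array probes may not separate them.

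Few single markers of glia and immune cells were called, beside 7.99% of all named genes at the 75th percentile. The medians of the lists, at the median scaling and at the 75th percentile, were -0.32 and -0.27 for oligodendrocyte precursor genes (16 and 15 of 17 negative), -0.25 and -0.20 for astrocyte genes (15 and 14 of 20 negative), -0.17 and -0.12 for microglia and -0.16 and -0.11 for myelin genes, beside -0.05 and 0.00 over all genes. No tested gene of the 23 of the interferon list or of the 6 of MHC class II was called at 1yr against 24hr in either setting. Of 22 microglia genes, P2ry12, the purinergic receptor of resting microglia, fell by 0.76 and Lyz2, lysozyme, by 0.42 at the 75th percentile. Of 20 astrocyte genes only Glul, glutamine synthetase, was called, by -0.33. Of 25 myelin genes Ugt8, which makes galactocerebroside, fell from 6.94, 6.30, 6.49 and 6.07 to 5.42, 5.57, 5.76 and 5.36 (-0.88 ± 0.27 at the 75th percentile, adjusted p = 0.0469). Neu4, a sialidase of new oligodendrocytes, was the only called member of 17 precursor genes (-0.76), and it stood at 4.25, 3.55, 3.63 and 3.34 at 24hr and at 2.82, 2.85, 3.19 and 2.65 at 1yr. Ccl5, a T cell chemokine, was the only called gene of 4 tested lymphocyte genes (1.05).

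**Figure D3:**
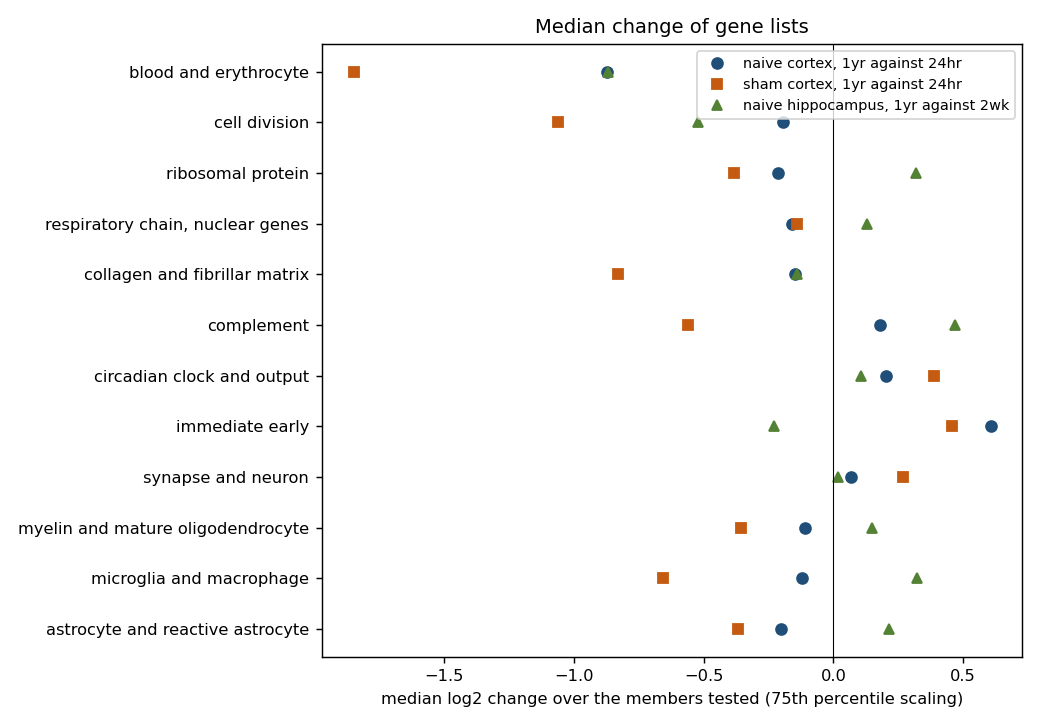
Median log2 change over the tested members of 12 gene lists (75th percentile scaling) in naive cortex and sham cortex at 1yr against 24hr, and in naive hippocampus at 1yr against 2wk. Blood genes were lower in all 3 (-0.87, -1.85 and -0.87), and complement genes had a median of 0.18 in naive and -0.56 in sham cortex.

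Of 33 ribosomal protein genes tested, 8 fell at 1yr at the 75th percentile and none at the median, where all 33 had a negative change, with a median of -0.27 beside -0.05 over all genes. There were 32 of 33 negative changes at the 75th percentile, with a median of -0.21, and the 8 fell by 0.32 to 0.44, beside 4.74% of named genes called lower. Rpl38 stood at 10.55, 10.52, 10.90 and 10.30 at 24hr and at 9.98, 10.36, 10.07 and 9.92 at 1yr, so that the groups overlapped. Nuclear genes of the respiratory chain had 31 of 33 negative values at the median (median -0.21) with none called, and 24 of 33 at the 75th percentile, where 6 fell: Cox7a2, Cox8a, Cox6c, Ndufa1, Cox6a1 and Cycs. Cox7a2 was at 10.69, 10.45, 10.55 and 10.47 at 24hr and at 9.94, 9.94, 10.02 and 9.96 at 1yr (-0.52, adjusted p = 0.00108). These 2 lists hold many processed copies in the genome, so that single probes may read more than 1 gene.

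Neuronal genes as a list had a median near 0 (0.02 at the median scaling and 0.07 at the 75th percentile over 30 genes). At the 75th percentile 3 rose and 3 fell, beside 3.24% of named genes called higher and 4.74% called lower. Syn2 and Snap25, both of the presynaptic vesicle machinery, were higher (0.41 and 0.38), as was the neurofilament gene Nefl (0.35, adjusted p just under the threshold), and the lower were Map2, a dendritic microtubule protein (-0.72), Dlg4, the postsynaptic scaffold PSD-95 (-0.72), and Shank1, another postsynaptic scaffold (-0.55). Map2 stood at 4.25, 4.77, 4.25 and 4.66 at 24hr and at 3.77, 3.90, 3.61 and 3.58 at 1yr, without overlap. Of 13 genes of perineuronal nets and brain matrix, Hapln4, Spock1 and Ncan rose (0.64, 0.48 and 0.29) while Tnr, Hapln1 and Bcan fell (-0.64, -0.62 and -0.32). Hapln4 was at 1.15 to 1.35 at 24hr and higher in every array at 1yr, up to 2.01, and Hapln1, a link protein of the same family, at 3.19 to 3.48 and 2.01 to 3.04, so members of 1 family moved in opposite directions.

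Growth factor genes also split, and several lipid genes fell. Ntf3, neurotrophin 3, stood at -0.68, -0.26, -0.03 and -0.27 at 24hr and at 0.86, 0.43, 0.55 and 0.79 at 1yr (1.02 ± 0.23 at the 75th percentile, adjusted p = 0.0143), and Igf1r, the IGF1 receptor, rose by 0.67 (adjusted p = 0.00464). Gdf10, Pdgfa, Igf1 and Gdf11 fell by 0.70, 0.45, 0.42 and 0.30, though the probes of Igf1 did not all move alike. Among cholesterol synthesis genes Tm7sf2, Cyp51, Dhcr7 and Hmgcs1 fell by 0.69, 0.49, 0.31 and 0.29. Tm7sf2, a sterol reductase, was at 4.57, 4.18, 4.30 and 4.46 at 24hr and at 3.59, 3.71, 3.69 and 3.56 at 1yr, without overlap. Postn, a matrix protein of fibroblasts, fell by 0.95, with Sparc (-0.41) and Col4a1 (-0.37), among 17 collagen and matrix genes. At the 75th percentile 7.99% of all named genes were called, and none of the genes in this paragraph was called at the median.

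Over the 5 intervals, 9 named genes had a rising and 15 a falling slope at the median. The falling genes were led by Casr (-0.29 a month ± 0.04 SE, adjusted p = 0.000205), Ceacam4 (-0.24, adjusted p = 0.00173) and Sfmbt2 (-0.20, adjusted p = 0.000173), and the rising by Amy2a3 (0.21, adjusted p = 0.0203), Cd70 (0.14, adjusted p = 0.0389) and Sytl1 (0.14, adjusted p = 0.000173). Cd70 is a ligand of the TNF family. Plvap, which forms the diaphragms of endothelial fenestrae, and Cyp26a1, which degrades retinoic acid, rose by 0.10 and 0.13 a month, but both had most of their rise before 3mo, with means at 24hr, 3mo and 1yr of 2.61, 3.51 and 3.78 for Plvap and of 1.83, 2.74 and 2.93 for Cyp26a1. Serpina1, the antitrypsin inhibitor, rose by 0.11 a month. The intervals were scanned on 3 days, and with the day as a block the slope was called for 1 probe at the median, that of Trdn (adjusted p = 0.0389), with 902 probes at an unadjusted p under 0.05, and for 3 at the 75th percentile over all 20 arrays, Trdn, Spock1 and 1 without a gene name, with 3360. With the block, at the 75th percentile over 20 arrays, the slope went from -0.31 to -0.06 for Casr, from -0.18 to -0.06 for Pnlip, from -0.19 to -0.10 for Igf2bp2, from -0.25 to -0.16 for Ceacam4 and from 0.09 to 0.04 for Spn, while it was -0.19 and -0.37 for Trdn, 0.12 and 0.10 for Sytl1 and 0.11 and 0.13 for Cdh23. The slope with the block was looked at for 15 of the 24 named genes with a called slope at the median. None of the 15 changed sign, and in 8 the size shrank by over 1.5 times. Cd70, Plvap, Cyp26a1, Serpina1, Maff, Ndc80 and Pclaf were not among the 15.

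The sham trend was set beside the naive trend because no array is shared between them. The trends were not independent of processing, since naive and sham arrays were scanned on the same day at every interval. At most intervals, named below, they also lay on the same slide. The part of slide and scan day in the slopes that both have was not tested. At the median 6 slopes were called in sham cortex of 25313 tested (0.0237%) and all 6 were also called in naive cortex in the same direction, which is 13% of the 46 naive calls. At the 75th percentile without the arrays that stood apart, 3218 were called in sham cortex (12.7%), and 249 of the 251 called in both had the same direction, 135 rising and 114 falling, which is 42.9% of the naive and 7.74% of the sham calls. Casr changed by -0.31 a month in naive and -0.31 in sham cortex, Ceacam4 by -0.25 and -0.29, Cdk1 by -0.14 and -0.19, Cdh23 by 0.13 and 0.18 and Plvap by 0.09 and 0.11, each with an adjusted p under the threshold in both. Trdn (-0.19 and -0.08, adjusted p = 0.0781 in sham cortex), Cd70 (0.12 and 0.05, adjusted p = 0.15) and Maff (0.09 and -0.02, adjusted p = 0.849) were called in naive cortex only. Their naive minus sham difference was not called in limma: -0.11 ± 0.05 SE for Trdn (adjusted p = 0.393), 0.07 ± 0.04 for Cd70 (adjusted p = 0.499) and 0.10 ± 0.05 for Maff (adjusted p = 0.473). A difference that was not called does not show that the slopes were alike.

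**Figure D4:**
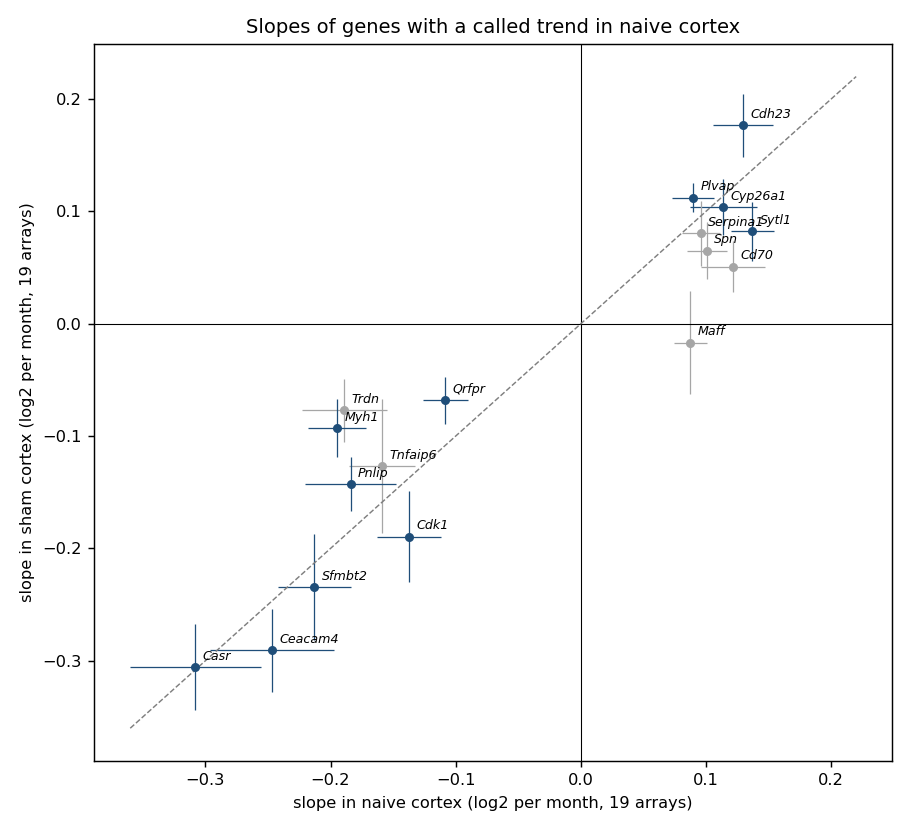
Slope over the year in naive (x axis) and sham (y axis) cortex, in log2 per month with SE bars, from 19 arrays each at the 75th percentile, for the 17 genes with a called slope in naive cortex that were also tested in sham cortex, and the dashed line marks equal slopes. Blue points (11 genes) had an adjusted p under 0.05 in sham cortex too, and 16 of the 17 had the same sign. Naive and sham arrays shared the scan day at every interval and the slide at most intervals.

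The difference of the slopes itself was called for 2 of 25578 probes at the median (0.00782%), both without a gene name and both higher in naive cortex, with 438 at an unadjusted p under 0.05. At the 75th percentile it was called for 2 of 25634 (0.0078%): Gmps, the GMP synthase (0.06 a month, adjusted p = 0.0152), and a probe without a gene name. These were named after their values were seen.

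For 1yr against 24hr in sham cortex, 28 of 25295 probes were called (0.111%) and 5538 at the 75th percentile (21.9%). Of the probes called in both at the 75th percentile, 703 of 800 had the same direction, 275 higher and 428 lower, which is 30.6% of the naive and 12.7% of the sham calls. Of 2286 naive calls that were also tested in sham cortex, 1637 had the same sign there. Casr, Ceacam4, Slc4a1 and Cdk1 fell and Cdh23 rose in both at the median. The other named rises were not called in sham cortex at the 75th percentile, and Amy2a3 was not tested there. The sham changes were 0.69 for Sytl1 (adjusted p = 0.128), 0.40 for Spn (adjusted p = 0.388) and -0.03 for Ptgs2 (adjusted p = 0.966). The sham slope of Sytl1 was called (0.08 a month, adjusted p = 0.0464). Cdk1 in sham cortex stood at 0.56, 2.78, 1.35 and 3.17 at 24hr, 1 day after surgery, and at -0.86, -0.69, -0.97 and -0.66 at 1yr, and its naive minus sham difference was not called (1.56 ± 0.50 at the 75th percentile, adjusted p = 0.0533). Alas2 fell by 2.51 in sham against 1.28 in naive cortex (difference 1.23, adjusted p = 0.0708). At 24hr, 2wk and 6mo naive and sham arrays shared a slide, so that for this span the 24hr arrays of both lay on the same slide.

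The naive minus sham difference in the change was called for 34 of 25415 probes at the median (0.134%), 11 higher and 23 lower, and for 1840 at the 75th percentile (7.24%). Lcn2, lipocalin 2 of reactive astrocytes and neutrophils, stood at 1.40, 0.90, 0.60 and 1.45 in naive cortex at 24hr and at 1.48, 0.97, 1.58 and 1.07 at 1yr, against 4.49, 7.34, 2.54 and 6.69 in sham cortex at 24hr and 0.90 to 1.68 at 1yr. In naive cortex the 24hr and 1yr arrays overlapped (change 0.19, adjusted p = 1), and the sham 24hr arrays lay above all of them. Serpina3n, another gene of reactive astrocytes, was not well above background in any naive array at 24hr or 1yr and stood at 1.81, 5.11, 1.32 and 4.80 in sham cortex at 24hr. Complement took opposite signs: C1r changed by 0.73 in naive and -0.61 in sham cortex, a difference of 1.35 ± 0.30 (adjusted p = 0.00606), and C1s differed by 1.22 (adjusted p = 0.00729), all at the 75th percentile. All 17 complement genes tested had a positive naive minus sham difference there, with a median of 0.81, and 2 were called.

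Cox7c, a subunit of cytochrome oxidase, fell by 1.79 ± 0.29 in naive cortex (adjusted p = 0.000905), from 0.53, -0.08, -0.05 and 0.02 to -1.71, -2.38, -0.89 and -1.78. The 1yr values lay near background, so the size of the fall is not exact. At the 75th percentile Cox7c changed by -1.74 in naive and 0.64 in sham cortex (adjusted p = 0.236 for sham), and the difference was called (-2.38, adjusted p = 0.002). Cox6c-ps1, a Cox6c pseudogene, fell from 2.12, 1.85, 1.86 and 1.62 to 0.85, 0.71, 0.96 and 1.03 in naive cortex and went from 1.11 to 1.41 up to 2.47 to 2.86 in sham cortex, without overlap in either (difference -2.31, adjusted p = 0.000513). Their probes may read near-identical copies.

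From 3mo to 1yr the naive and sham arrays lay on different slides at both ends, although on the same scan days. In naive cortex 36 of 22476 probes were called (0.16%), 16 higher and 20 lower, and at the 75th percentile 885 (3.94%). In sham cortex 0 of 25173 were called at the median in limma, with 352 at an unadjusted p under 0.05, and 1277 at the 75th percentile (5.07%). All 96 probes called in both at the 75th percentile had the same direction, 50 higher and 46 lower, which is 10.8% of the naive and 7.52% of the sham calls. Ets2, a transcription factor, rose by 0.70 in naive and 0.90 in sham cortex, Nat8l, which makes N-acetylaspartate, by 0.62 and 0.72, and Dnm1, neuronal dynamin, by 0.51 and 0.75. Pak3, a kinase of dendritic spines, fell by 0.54 and 0.51 and Ctnnb1, beta-catenin, by 0.50 and 0.55. The difference between naive and sham rats over this span was called for 1 of 25223 probes at the median (0.00396%), one without a gene name, and at the 75th percentile for 2 (0.00793%), the same transcript and Kifbp (-0.88, adjusted p = 0.0461), with 368 and 3154 at an unadjusted p under 0.05.

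The largest naive falls from 3mo to 1yr included those of choroid plexus genes. Ttr, transthyretin, which the choroid plexus secretes in bulk, stood at 12.16, 12.29, 12.08 and 4.62 at 3mo and at 3.82, 4.76, 5.14 and 4.34 at 1yr, so that 3 of the 4 arrays at 3mo were high and the fourth was not. In the other intervals it lay between 1.43 and 6.70. It changed by -5.77 ± 1.00 (adjusted p = 0.00373), and Kcnj13, a potassium channel of the plexus epithelium, by -2.82 (adjusted p = 0.0107) with 4.18, 3.96, 3.82 and 0.90 at 3mo, the same 3 arrays being high. Kcne2, another channel subunit there, fell by 2.01 (adjusted p = 0.0144). Of 8 choroid plexus genes tested all had a negative change, and these 3 were called at the median, beside 13 of 10671 named genes called lower. The summed level of the list was 11.69 to 430.2 times the array's 75th percentile at 3mo. In the other naive groups the summed level was 8.696 to 25.62 times that percentile. In sham cortex 1 of 4 arrays at 3mo and 1 of 4 at 1yr had Ttr above 10 (10.59 and 10.21). Against 24hr, where no naive array was high in Ttr, the 1yr change of Ttr was -0.06 (adjusted p = 1). Other falls of this span, among them those of Cdh3 (-1.88), Steap1 (-2.11) and Slco1a5 (-1.91), stood beside the same values, and the part of choroid plexus in them was not tested.

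Over the same span, Retnlg, a resistin-like gene of neutrophils, rose by 2.47 (adjusted p = 0.00121) and Cnn1, smooth muscle calponin, by 1.68 (adjusted p = 0.0393). At the 75th percentile 5 of 20 endothelial and mural genes were higher at 1yr than at 3mo and none was lower, with a median of 0.33, beside 290 of 10671 named genes called higher (2.72%). They were Tagln and Myh11 of smooth muscle (1.03 and 1.01), Esam and Cldn5 of endothelial junctions (0.58 and 0.52) and Slc2a1, the glucose transporter of the blood-brain barrier (0.31). In sham cortex none of the list rose, and Flt1 and Slco1a4 fell (-0.36 and -0.63), and the difference of the list between naive and sham rats was not tested.

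Neighbouring intervals differed as follows. From 24hr to 2wk, the shortest span, 86 of 23850 probes were called (0.361%), 78 of them lower, and at the 75th percentile without the array that stood apart 545 (2.25%), 302 higher and 243 lower. Among the largest falls of named genes at the median, Tex15, C14h1orf146, Gnb3 and LOC102554959 were not called there (adjusted p from 0.0566 to 0.163). From 2wk to 3mo 895 were called (3.9%), or 1127 (4.74%) at the 75th percentile. From 3mo to 6mo 47 were called (0.206%), or 397 (1.74%). From 6mo to 1yr, both scanned on 1 day, 4 were called (0.0173%), or 361 (1.56%): Retnlg (at least 3.10-fold, adjusted p = 0.00483), Rpl30l3, a ribosomal protein copy (3.81, adjusted p = 0.00512), and 2 transcripts without a gene name, XR_589988 and another (4.13, adjusted p = 0.00483).

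In the hippocampus of the same rats, 134 of 23682 probes were called for 1yr against 2wk (0.566%), and in naive cortex over that span 551 of 23359 (2.36%), or 705 (2.98%) and 1223 (5.12%) at the 75th percentile. All 31 probes called in both at the median had the same direction, 21 higher and 10 lower, which is 5.63% of the cortex and 23.1% of the hippocampus calls. Without the cortex array that stood apart, at the 75th percentile, 84 of 88 had the same direction, 36 higher and 48 lower, which is 6.87% of the cortex and 11.9% of the hippocampus calls. Slc4a1 fell by 2.38 in hippocampus (adjusted p = 0.000686), from 1.22, 1.61, 1.03 and 0.46 at 2wk to a highest value of -0.40 at 1yr, and Alas2 by 1.31 (adjusted p = 0.00294). Cdh23 rose there from -0.49, -0.54, -0.81 and -0.69 to 1.16, 1.34, 1.23 and 1.27, by 1.88 (adjusted p = 0.000741), and Cdk1 fell by 1.11 (adjusted p = 0.0447). Ptgs2 went the other way, by -1.08 (adjusted p = 0.0293), and the difference between regions was not tested. Ribosomal protein genes were positive in 33 of 33 in hippocampus, with a median of 0.32 at the 75th percentile, against -0.07 in naive cortex over the same span and -0.21 for 1yr against 24hr.

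Of the 41 probes called at 1yr against 24hr, 19 had no gene name, 10 higher and 9 lower, and the largest changes of all were among them. The transcript XR_589988 was not well above background at 24hr or 3mo, stood at 0.04, -0.16, -0.04 and 0.24 at 6mo and at 1.77, 1.47, 1.84 and 1.48 at 1yr, a rise of at least 7.11-fold (adjusted p = 2.28e-12), and its slope was 0.32 a month (adjusted p = 1.08e-08). It was also called from 6mo to 1yr (1.62, adjusted p = 0.0053). XR_349491 rose by at least 5.68-fold (adjusted p = 6.2e-08) and stood at 1.32, 0.65, 1.68 and 1.60 at 1yr. Both rose in sham cortex (at least 5.31-fold and 4.84-fold) and in hippocampus from 2wk (3.20 and 3.03), with no overlap between the first and last intervals in any of the 3. These 2 transcripts were chosen after their values were seen.

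**Figure D5:**
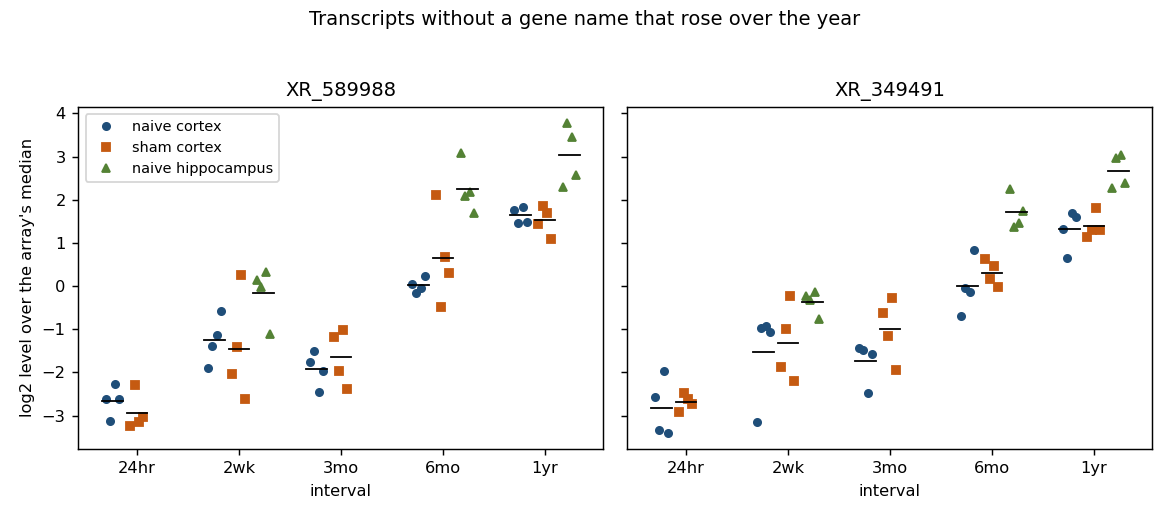
Levels (log2 relative to the array median) of 2 transcripts without a gene name in the 4 arrays of each interval, with circles for naive cortex, squares for sham cortex, triangles for naive hippocampus (2wk, 6mo and 1yr) and a line at each mean. In naive cortex XR_589988 had a mean of -2.65 at 24hr and 1.64 at 1yr, and its 1yr arrays lay above those of every other naive interval, while for XR_349491 the 6mo arrays reached 0.84 and overlapped those of 1yr.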

How the data were processed

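RNA of 20 naive cortex samples was amplified with a poly(A) T7 linear method, labelled and hybridised to single-colour Agilent arrays by the authors, whose deposited scanner files hold spot intensity values. Per the file headers these were background-subtracted and detrended in Agilent Feature Extraction 11.5.1.1 and not normalized between arrays. The authors' deposited value table holds intensity divided by 1 constant for each array, which lay near the 75th percentile in naive arrays although the methods name the median, and served as an alternative. The flags of outlier spots and of spots well above background came from the same files.

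Processed intensity was taken to log2 and centred on the median of each array. Control and outlier spots were left out and spots of 1 probe averaged. A name was available for 21109 of 45598 probes (46.29%), covering 16581 genes. Of several probes for a gene the one with the highest mean over the 20 naive cortex arrays was used. Group means, or a slope per month with intervals at 0.0333, 0.467, 3, 6 and 12 months, were fitted with limma 3.58.1 in R 4.3.3, over all 5 groups of a tissue and treatment, and p-values were adjusted over all probes tested. Hippocampus was fitted over its 12 arrays, with the 75th percentile as the second scaling. The 75th percentile was the alternative scaling set at the outset, whereas leaving out the array that stood apart, the scan day block and the sham trend were chosen after the data were seen. Replicates were the 4 arrays of a group, each labelled as a separate sample, and their number limits the precision. The scripts were tested on simulated data. The genes named in the text were the largest called rises and falls at 1yr against 24hr whose arrays did not overlap and whose slope had the same sign, members of the 33 gene lists with the lowest adjusted p, those with the largest changes called in naive and sham cortex alike, those with the largest called difference between them, and the largest called changes from 24hr to 2wk. Genes named for the slope, for 1yr against 3mo or 6mo and as further list members were taken from the called genes after their values were seen. The lists, members and comparisons were chosen with earlier results of these data known. Where a group was not well above background on any array, a bound on the fold is given, from the brighter group's mean and the lowest signal well above background on each array of the dimmer group. Alternatives were other scalings, quantile normalization, normexp background correction, the authors' values, other filters on dim probes, array weights, a replicate block and leaving out each array. Samples of injured rats were not used here, and a few genes that met these rules are not reported here.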

Additional observations from a re-analysis of the deposited data

Results flagged for a closer look

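In groups of 4 arrays, a single array lay far from the others in 5 of 158 gene and interval groups tested, where chance gives about 1 in 20. In the first 24hr array the gap to the next array was 0.956 of the whole range of the group for Cdk1, 0.947 for Cox7a2, 0.892 for Dlg4 and 0.864 for Cdca3, and in each the array was the highest. Gdf10 was high in the third 1yr array (0.881). Of 15 groups of array measures, the median signal of the fourth 2wk array was far above the others (0.895).

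The change from 24hr to 1yr differed between naive and sham cortex, by the fitted difference of the changes at the median, in 8 named genes. Kng2l1 (7.63, adjusted p = 1.77e-07) and Kng2 (6.90, adjusted p = 0.000282), both kininogen genes, and Serpina3n (6.80, adjusted p = 0.000185) were not well above background in any naive array of the 2 intervals or at 1yr in sham cortex, and were well above it in all 4 sham arrays at 24hr. These 3 differences rest on background values in 3 of 4 groups and have no exact size. The fall in sham cortex was at least 21.0-fold, 13.1-fold and 27.5-fold in turn. Inmt, a methyltransferase, changed by 1.56 in naive and -3.03 in sham cortex (4.59, adjusted p = 0.00557), and stood at 1.85, 4.49, 2.06 and 2.59 in the sham 24hr arrays. Lcn2 changed by 0.19 and -4.12 (4.31, adjusted p = 0.00323). Cox6c-ps1 changed by -0.97 and 1.33 (-2.31, adjusted p = 0.000513), and Rpl17l5, a ribosomal protein copy, by -0.67 and 0.81 (-1.48, adjusted p = 0.0248), from 0.71 to 1.14 down to 0.13 to 0.37 in naive cortex and from 0.57 to 0.94 up to 1.48 to 1.76 in sham cortex. Krtap10-10l2 differed by -1.999 (adjusted p = 0.0398) and was not well above background in the sham 24hr arrays, so its rise in sham cortex was at least 1.98-fold. The naive and sham 1yr arrays lay on different slides and the 24hr arrays on 1 slide, and the part of the slide in these differences was not tested.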

How the results depend on the processing

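The number of called probes depended on scaling and on the arrays that stood apart. Of 964 values of the 1yr against 24hr change of 76 genes under the alternatives 0 reversed, 664 stayed on the same side of the threshold, 265 passed it newly and 35 no longer passed it. Of 165 list medians 160 moved by less than the spread used and 5 by more. With the 75th percentile, then with a median taken only over probes that every array measured above background, then with the 75th percentile and the arrays that stood apart left out, the counts were 1688, 1771 and 2301 for 1yr against 24hr (41 at the median), 522, 555 and 580 for the slope (46), 622, 670 and 885 for 1yr against 3mo (36), 1461, 1313 and 545 for 2wk against 24hr (86), 262, 255 and 397 for 6mo against 3mo (47), 179, 232 and 361 for 1yr against 6mo (4), and 1746, 1738 and 1223 for 1yr against 2wk (551). They were 158, 326 and 5538 for sham cortex at 1yr against 24hr (28), 0, 0 and 1277 for sham cortex at 1yr against 3mo (0), 89, 117 and 1840 for the naive minus sham difference at 1yr against 24hr (34), 0, 0 and 2 for that at 1yr against 3mo (1), and 705 and 713 for hippocampus (134). At the median without both arrays the 2 differences gave 2185 and 2. The median change of all probes moved with the scaling where 2wk was compared, and the share of calls that were higher went from 9.3% to 55.4% for 2wk against 24hr, from 89.7% to 34.1% for 3mo against 2wk, from 87.3% to 52.2% for 1yr against 2wk and from 44.4% to 59.8% for 1yr against 3mo.

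For 1yr against 24hr the count was 1233 after quantile normalization, 18 with normexp, 1731 with the authors' values, 19 with no filter on dim probes, 5 with probes well above background on every array, 3372 with array weights and 897 with the 8 arrays of the comparison alone. For the slope the same settings but the last gave 452, 23, 516, 27, 4 and 1121, while leaving out 24hr gave 27 and the scan day as a block 1. With that block the slopes of 11 of 76 genes changed sign at the median and of 10 at the 75th percentile, none of them called at the median, among them C4a (0.11 to -0.02 a month), C4b (0.12 to -0.04), Inmt (0.12 to -0.08), Per2 (0.07 to -0.02) and Neu4 (-0.05 to 0.02). The cause was not tested.

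Leaving out each array in turn gave 27 to 1019 calls for 1yr against 24hr, 25 to 162 for the slope, 11 to 269 for 1yr against 3mo, 11 to 255 for 6mo against 3mo and 3 to 68 for 1yr against 6mo, each highest without the fourth 2wk array. It gave 0 to 12881 for 2wk against 24hr, 61 to 11630 for 3mo against 2wk and 94 to 8270 for 1yr against 2wk, each highest without the third 2wk array and lowest without the second array of 24hr, 3mo and 1yr in turn. In sham cortex it gave 15 to 4427 and 0 to 98, highest without the third 2wk array, for the differences 18 to 168 (without that sham array) and 0 to 43 (without the fourth naive 3mo array), and for hippocampus 46 to 443 (without the second 6mo array). The deviations of arrays with the same replicate number had a median correlation of -0.009 over 40 pairs (-0.201 to 0.259) and those with other numbers -0.002, so the numbers were not taken to pair the samples. A replicate block gave 45 calls for 1yr against 24hr, 41 for the slope and 25 for the naive minus sham difference.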

Other observations

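Some gene groups outside the comparisons above had called members at 1yr against 24hr in naive cortex at the 75th percentile. Over all named genes 3.24% were called higher there and 4.74% lower. Of 21 hypoxia and glycolysis genes Adm, Pfkfb3 and Aldoa were higher (0.87, 0.36 and 0.32) and P4ha1 lower (-0.42). Of 19 heat shock genes Dnajb4 and Bag3 were higher (0.57 and 0.53), and of 17 senescence genes Gadd45b, a stress-induced gene, was higher (0.89, adjusted p = 0.00464) and Hmgb1, whose probes did not all move alike, lower (-0.50). Gadd45b stood at 4.76, 4.80, 4.81 and 4.76 at 24hr and at 5.57, 6.07, 5.43 and 5.44 at 1yr. Of 12 MHC class I genes Tap2, a peptide transporter, was higher (0.53) and Psmb10, an immunoproteasome subunit, lower (-0.39). Gad1, which makes GABA, was the only called one of 21 inhibitory neuron genes (0.42, adjusted p = 0.0277). None of these was called at the median, and no meningeal gene of 15, choroid plexus gene of 7 or thalamus gene of 10 was called in either setting.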
